A study of Homo sapiens with 5 samples.

Results

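The regions described here were bound by Nrf2 after arsenic only, and lay away from the start sites of genes. They are intervals of Nrf2 ChIP-seq in BEAS-2B cells, an immortalized line of human bronchial epithelium that is not malignant. A region was chosen by 3 measured facts. It overlapped, by at least 1 bp, an interval of the Nrf2 library from arsenic-treated cells, it overlapped no interval of the other 3 libraries, and its centre lay more than 3 kb from every start site of a protein-coding transcript in GENCODE on hg19. This rule took 3022 of the 21088 merged regions in the series (14.3%). They made up 85.9% of the 3516 regions of any position that were found in the Nrf2 arsenic library alone. Each of the 3022 regions held exactly 1 interval of that library, and together they held 39.0% of its 7743 intervals.

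The study compared 4 libraries, 1 for each antibody and condition. All cells were deprived of serum overnight. The Nrf2 control and HIF1α control libraries came from cells without arsenic, and the Nrf2 arsenic and HIF1α arsenic libraries from cells given 1 µM inorganic arsenic (iAs) for 6 h. The Nrf2 control library held 3204 intervals, the HIF1α control library 6008 and the HIF1α arsenic library 12826. Since the values are positions on the genome, without heights or scores, the depth behind an interval is unknown, and presence in 1 library and absence from another has no replicate check. The intervals and p-values below therefore cover the spread between regions of these libraries and not between cultures. The cell line could not be checked against marker genes, because no expression was measured in this series.

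Nrf2, the product of NFE2L2, is a basic leucine zipper transcription factor. In resting cells KEAP1 holds it in the cytoplasm and delivers it to ubiquitination. Arsenite and other electrophiles modify KEAP1, and Nrf2 then accumulates, pairs with a small MAF protein and binds the antioxidant response element (ARE), which turns on enzymes of glutathione synthesis, thioredoxin reduction, quinone detoxification, heme breakdown and NADPH supply. The ARE contains a sequence close to the site of AP-1, the dimer of FOS and JUN proteins, and the competing repressors BACH1 and BACH2 bind much the same sequence.

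Sequence played no part in choosing the regions, so the sites in them are shown here before any count. The AP-1 site was searched as TGACTCA, the ARE core as TGACNNNGC, and the extended Nrf2 site, which is an AP-1 site and an ARE core at the same time, as TGACTCAGC, on both strands. The following 8 stretches of hg19 come from the widest regions that held the extended site within 100 bp of the centre, with no more than 1 region per chromosome and none in an exon. Each is printed 5′ to 3′ on the strand that carries the site, 36 bases on each side of it, with the site in capitals.
chr21:38936807-38936887, minus strand, intergenic, nearest start site AP001421.1: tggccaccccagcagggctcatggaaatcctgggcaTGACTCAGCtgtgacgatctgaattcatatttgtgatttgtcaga
chr17:45688156-45688236, minus strand, intron 17 of NPEPPS: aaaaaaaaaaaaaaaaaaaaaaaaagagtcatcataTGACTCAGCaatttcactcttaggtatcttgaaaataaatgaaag
chr20:34757559-34757639, plus strand, intron 1 of EPB41L1: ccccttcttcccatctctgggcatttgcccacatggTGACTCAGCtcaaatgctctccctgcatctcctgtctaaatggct
chr15:96935718-96935798, plus strand, intergenic, nearest start site NR2F2: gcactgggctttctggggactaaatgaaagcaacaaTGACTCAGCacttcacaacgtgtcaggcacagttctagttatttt
chr7:47709244-47709324, plus strand, intergenic, nearest start site TNS3: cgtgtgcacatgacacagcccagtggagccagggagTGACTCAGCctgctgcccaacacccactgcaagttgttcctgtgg
chr1:202250965-202251045, minus strand, intron 6 of LGR6: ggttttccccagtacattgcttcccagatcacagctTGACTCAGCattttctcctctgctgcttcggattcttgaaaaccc
chr6:105970670-105970750, minus strand, intergenic, nearest start site PREP: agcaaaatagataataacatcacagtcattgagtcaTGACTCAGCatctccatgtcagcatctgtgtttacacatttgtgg
chr10:128148057-128148137, minus strand, intron 6 of C10orf90: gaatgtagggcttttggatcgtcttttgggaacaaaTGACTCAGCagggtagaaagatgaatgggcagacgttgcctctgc
The site lay 26 to 75 bp from the centre of its region in these 8 regions, whose widths ran from 770 to 1138 bp. The base after the site was A in 5 of the 8. The chr21 region and the chr6 region each held 3 AP-1 sites over their whole width, and the region in C10orf90 held 2.

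The regions were narrow. Their width ranged from 181 to 1248 bp, with a median of 265 bp and quartiles of 213 and 353 bp. The lowest width was shared by 180 regions. Regions over 500 bp numbered 249 (8.24%). The constitutive Nrf2 distal regions were 2334 regions that held an interval of both Nrf2 libraries, with or without HIF1α intervals. They also lay more than 3 kb from start sites. Their median width was 585 bp, and 61.6% of them exceeded 500 bp. Width comes from the same intervals as the rule, and the merged constitutive regions join intervals of at least 2 libraries, so this difference is given as a description. The regions found in HIF1α arsenic alone at the same distance from start sites, 1227 in number, had a median of 263 bp.

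**Figure D1:**
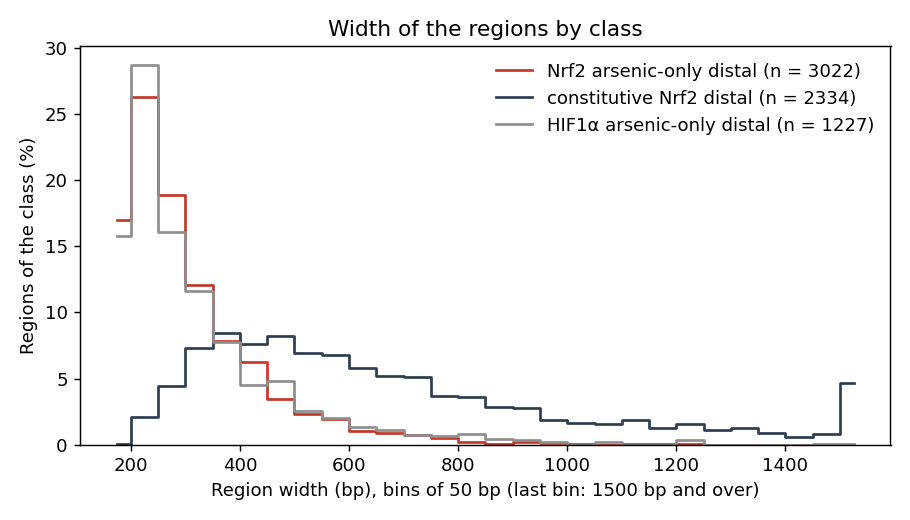
Share of regions (y axis, %) by region width (x axis, bp, in bins of 50 bp, with everything from 1500 bp in the last bin) for the Nrf2 arsenic-only distal, constitutive Nrf2 distal and HIF1α arsenic-only distal regions. The arsenic-only regions of both factors gather below 400 bp, with medians of 265 and 263 bp, and the constitutive Nrf2 regions spread to beyond 1000 bp around a median of 585 bp.

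The 3 regions just inside the distance rule had centres 3004, 3014 and 3041 bp from a start site and were 212, 239 and 312 bp wide. The 3 just outside it lay at 2997, 2989 and 2958 bp and were 253, 282 and 300 bp wide. Absence from the Nrf2 control library was also close for some regions. The nearest Nrf2 control interval was 13 bp away for the region at chr2:147336855-147337119, 21 bp for chr7:65747973-65748394 and 23 bp for chr17:75119650-75120054. In all, 279 regions (9.23%) had a Nrf2 control interval within 1 kb, 126 (4.17%) a HIF1α control interval and 47 (1.56%) a HIF1α arsenic interval. The median distance to a Nrf2 control interval was 104816 bp.

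The AP-1 site was the most frequent of the 18 motifs searched. It lay within 100 bp of the centre in 1338 of the 3022 regions (44.3%, 95% Wilson interval 42.5 to 46.0), and in 114 of the same windows moved by 5 kb (3.77%), a ratio of 11.7. Over all 21088 regions of the series the share was 16.2%. The extended Nrf2 site was present in 546 regions (18.1%, 16.7 to 19.5) and in 8 of the moved windows (0.265%), a ratio of 68.2. The ARE core was present in 1030 regions (34.1%, 32.4 to 35.8) and in 205 of the moved windows (6.78%), a ratio of 5.02. By two-sided Fisher's exact test with Benjamini-Hochberg adjustment over the 18 motifs, p was 1.55e-160 for the extended site and 1.91e-162 for the ARE core, and for the AP-1 site it was too small for the software to represent.

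Motifs of other factors were more modest. GGAATG, the site of the TEAD factors that act with the Hippo pathway cofactors YAP and TAZ, occurred in 636 regions (21.05%) against 11.0% of the moved windows (adjusted exact p = 4.46e-26). The C/EBP site TTGCNNAA occurred in 14.4% against 10.3% (adjusted exact p = 4.2e-06), and the RUNX site TGTGGT in 17.1% against 13.9% (adjusted p = 0.00145). The E-box CACGTG reached 3.11% against 1.52% (adjusted exact p = 0.000113), the ETS site CCGGAA 3.04% against 1.42% (adjusted p = 6.26e-05) and the NF-κB site GGGNNTTCC 3.01% against 1.79% (adjusted p = 0.00426). The cores of the hypoxia response element did not pass the test. GCGTG occurred in 11.9% of the regions and 12.2% of the moved windows (adjusted exact p = 0.828), and ACGTG in 9.93% and 8.44% (adjusted p = 0.0749). The sites of SP1, FOX, GATA, YY1 and CRE factors did not pass either. Among the control words, the shuffled AP-1 site TCAGTAC was in 1.65% of the regions against 1.26% (adjusted exact p = 0.285). The AP-1 site read backwards, ACTCAGT, was in 5.13% against 2.58% (adjusted exact p = 1.09e-06), but this word also lies inside TGACTCAGT. Once TGACTCAGT was masked, it remained in 3.61% (2.999 to 4.333) of the regions and 2.42% of the moved windows. A control word thus kept an excess over its moved windows. Its ratio before masking was 1.99. A pass at a lower ratio, as for RUNX (1.23), C/EBP (1.40), NF-κB (1.685) and TEAD (1.92), therefore cannot be read as binding by those factors. The ratios of the E-box (2.04) and the ETS site (2.14) were little above that of the control word.

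**Figure D2:**
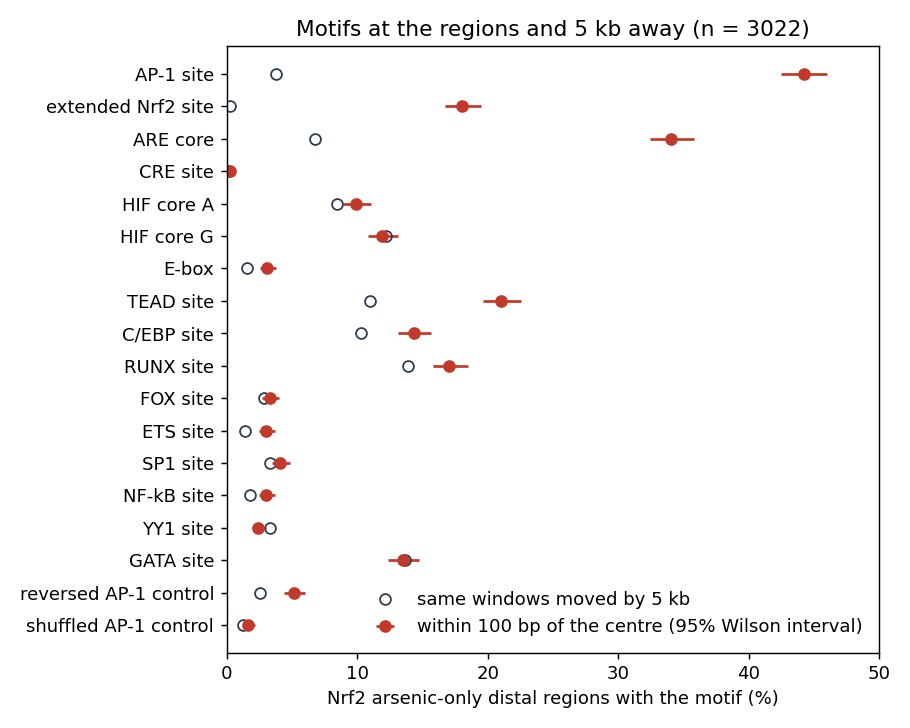
Share of the 3022 regions (x axis, %) that held each of the 18 motifs (y axis) within 100 bp of the centre (filled points with 95% Wilson intervals) and in the same windows moved by 5 kb (open points). The AP-1 site (44.3% against 3.77%), the ARE core (34.1% against 6.78%) and the extended Nrf2 site (18.1% against 0.265%) stand furthest from their moved windows, and both hypoxia response element cores lie close to theirs.

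The regions fell into kinds by which of these overlapping sites they held. The extended site was in 546 (18.1%), an ARE core without any AP-1 site in 373 (12.3%), an ARE core and a separate AP-1 site in 111 (3.67%) and an AP-1 site without an ARE core in 681 (22.5%). The remaining 1311 regions (43.4%, 41.6 to 45.2) had neither within 100 bp of the centre. Median widths of these kinds ran from 258 bp for the AP-1 site alone to 273.5 bp for the extended site, and 263 bp where neither was found. The TEAD site was present beside these sites and without them, with intervals that overlapped. It occurred in 20.5% (18.7 to 22.5) of the 1711 regions with an AP-1 site or ARE core and in 21.7% (19.6 to 24.1) of the 1311 with neither. The RUNX site, for which the intervals did not overlap, was in 15.1% (13.5 to 16.9) of the former and 19.6% (17.5 to 21.8) of the latter.

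Among the 1131 ARE cores in these windows, 561 (49.6%) read TGACTCAGC. The next were TGACACAGC with 62 sites (5.48%) and TGACTAAGC with 60 (5.31%). In the windows moved by 5 kb, 8 of 211 cores read TGACTCAGC, and the most frequent there was TGACAGAGC with 38. Seen from the AP-1 site, 37.1% of 1513 sites were followed by GC. The next most frequent endings, TC and TG, followed 8.13% and 7.80%. Among the 561 extended sites, the base after the site was A in 324 (57.8%) and the base before it was A in 297 (52.9%).

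The sites lay near the centre. Among regions with an AP-1 site within 100 bp, the nearest site was a median of 33 bp from the centre and 38.8% had it within 25 bp. For the ARE core the median was likewise 33 bp. For the TEAD site it was 42.5 bp, and 30.7% had it within 25 bp. More than 1 AP-1 site was found in 174 of the 1338 regions (13.0%).

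**Figure D3:**
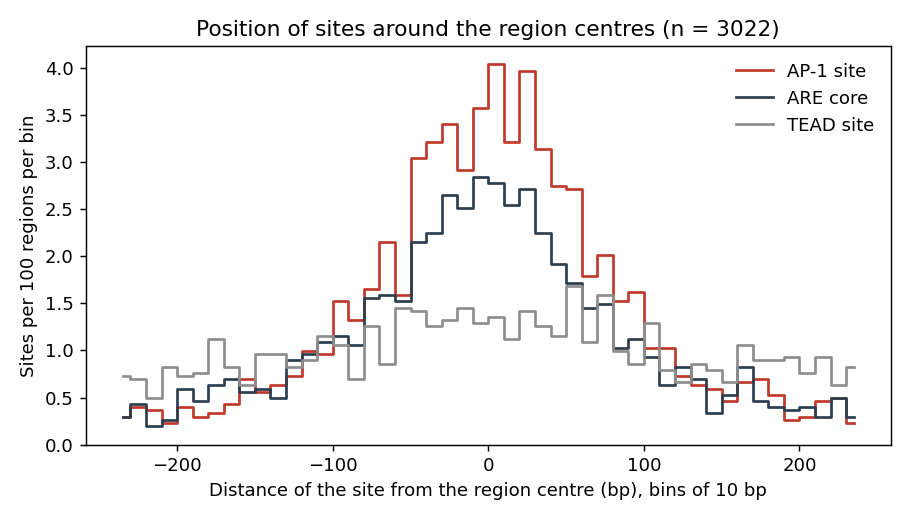
Number of sites per 100 regions in bins of 10 bp (y axis) by distance from the region centre (x axis, bp) for the AP-1 site, the ARE core and the TEAD site in the 3022 regions. The AP-1 site and the ARE core pile up within about 100 bp of the centre, whereas the TEAD site makes a low, broad rise.

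The comparison with the constitutive Nrf2 distal regions asked whether the sequence differed between distal regions gained in arsenic and those already occupied without it. The constitutive class could also hold HIF1α intervals, which the arsenic-only regions could not. Occupancy before arsenic and overlap with HIF1α cannot be told apart in these differences. The AP-1 site did not pass the test (44.3% against 45.4%, a difference of -1.14 percentage points, 95% Newcombe interval -3.83 to 1.54, adjusted p = 0.537 by Fisher's exact test over 54 comparisons of 18 motifs with 3 classes). The TEAD site did not pass either, at 21.05% against 21.7% (difference -0.634, -2.86 to 1.57, adjusted exact p = 0.709). The ARE core was less frequent in the arsenic-only regions, at 34.1% against 37.6% (difference -3.53, -6.13 to -0.946, adjusted exact p = 0.0161), as was the extended site, at 18.1% against 21.2% (difference -3.10, -5.26 to -0.957, adjusted p = 0.0112). Both of these differences failed the test when the window was 50 bp on each side of the centre (adjusted exact p = 0.216 and 0.338), and when regions within 1 kb of another library's interval were left out (adjusted p = 0.701 and 0.451). The YY1 site AAGATGG was also less frequent, at 2.42% against 3.68% (adjusted exact p = 0.0161).

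Within bands of width the comparison with the constitutive regions changed. At 251 to 350 bp, 440 of 922 arsenic-only regions (47.7%) and 160 of 277 constitutive regions (57.8%) held the AP-1 site (difference -10.0, -16.6 to -3.33, adjusted exact p = 0.0475 over 12 tests). At 181 to 250 bp the shares were 42.9% and 60.8% (51 constitutive regions, adjusted exact p = 0.0627), and at 351 to 500 bp 45.0% and 52.4% (adjusted p = 0.0627). Above 500 bp they were 37.3% and 39.7% (adjusted exact p = 0.725). The ARE core and the extended site passed the test in no band (adjusted exact p from 0.397 to 0.886).

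The comparison with the 494 Nrf2 arsenic-only regions within 3 kb of a start site showed what distance from genes went with. The distal regions held the AP-1 site more often (44.3% against 30.4%, difference 13.9, 9.36 to 18.2, adjusted exact p = 1.6e-08), and the extended site (18.1% against 12.6%, difference 5.52, 2.04 to 8.51, adjusted p = 0.00677), the TEAD site (21.05% against 15.4%, adjusted p = 0.00949) and the RUNX site (17.1% against 11.1%, adjusted p = 0.00217). The ARE core did not pass (34.1% against 32.0%, with an interval of the difference from -2.46 to 6.41, adjusted exact p = 0.531). The SP1 site GGGCGG, a common element of CpG-rich promoters, was less frequent in the distal regions (4.10% against 15.2%, adjusted exact p = 3.54e-17). The median GC content of the windows was 45.3% at the distal regions and 50.7% near start sites. The HIF1α arsenic-only distal regions were of another composition, with a median GC content of 69.7%. The AP-1 site was in 2.77% of them, the ARE core in 11.5%, the SP1 site in 53.0% and GCGTG in 43.7% (each against the Nrf2 regions adjusted exact p at or below 5.17e-55).

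Distal Nrf2 regions gained in arsenic lay near regions that Nrf2 occupied in both conditions more often than the HIF1α arsenic-only distal regions did. A constitutive Nrf2 region of any position lay within 50 kb of 1088 of the 3022 regions (36%, 34.3 to 37.7) and of 228 of the 1227 HIF1α arsenic-only distal regions (18.6%, 16.5 to 20.9), a difference of 17.4 percentage points (14.6 to 20.1, adjusted p = 5.75e-30 by Fisher's exact test over 8 tests). Within 1 kb the shares were 9.79% and 0.652% (adjusted exact p = 1.85e-34). The Nrf2 arsenic-only regions near start sites had such a neighbour within 1 kb more often than the distal ones (15.4%, adjusted exact p = 0.000576).

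The sequence of the regions went with that distance. Of the 296 regions within 1 kb of a constitutive Nrf2 region, 50 (16.9%, 13.1 to 21.6) held the AP-1 site. The share was 39.6% (34.3 to 45.2) among 303 regions at 1 to 10 kb, 42.8% (39.5 to 46.2) among 841 at 10 to 100 kb and 51.1% (48.6 to 53.5) among the 1582 beyond 100 kb. The ARE core rose from 10.1% (7.19 to 14.1) within 1 kb to 41.0% (38.6 to 43.4) beyond 100 kb, where 7.77% and 6.70% of the moved windows held it. The median widths of the 4 groups ran from 257.5 to 268 bp. The 273 constitutive regions nearest to the regions within 1 kb had a median width of 770 bp, and 39.6% of them (33.9 to 45.5) held the AP-1 site near their own centre. These shares were not tested. When regions with an interval of another library within 1 kb were left out, the AP-1 share over all was 47.6%.

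**Figure D4:**
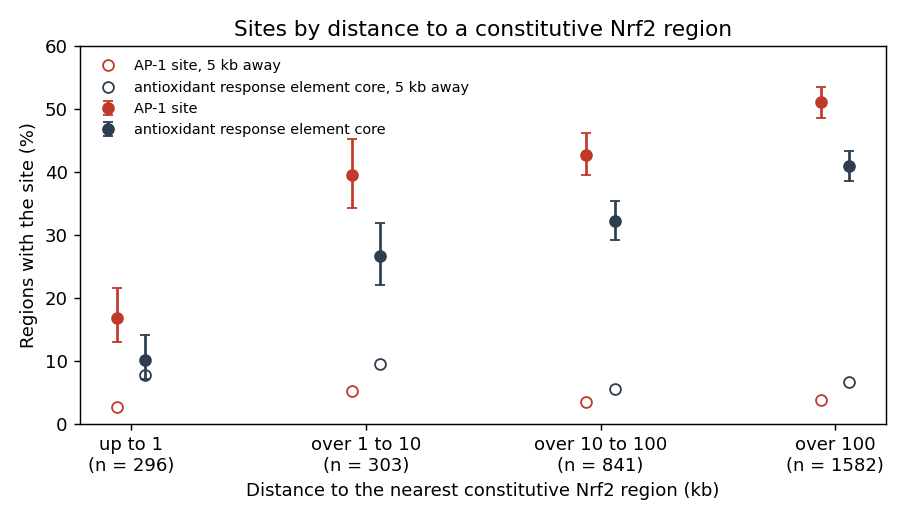
Share of the regions (y axis, %) with an AP-1 site or an ARE core within 100 bp of the centre, by distance to the nearest constitutive Nrf2 region (x axis, kb, with the number of regions), with 95% Wilson intervals, and in the same windows moved by 5 kb (open points). The AP-1 share climbs from 16.9% within 1 kb to 51.1% beyond 100 kb, and the ARE core within 1 kb (10.1%) is close to its moved windows (7.77%).

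Measured against protein-coding transcripts, 1588 centres (52.5%) were intergenic, 1365 (45.2%) intronic, 46 (1.52%) in untranslated exon sequence and 23 (0.761%) in other exon sequence. The intron share did not pass the test against the constitutive distal regions (43.7%, difference 1.47, -1.22 to 4.14, adjusted exact p = 0.319 over 12 tests). It was higher than in the HIF1α arsenic-only distal regions (21.9%, difference 23.3, 20.3 to 26.1, adjusted exact p = 1.27e-46). Where the centre lay in an intron of 1 canonical transcript, it was intron 1 in 380 of 1204 regions (31.6%, 29.0 to 34.2), and in 29.6% (26.7 to 32.6) of such constitutive regions. The centres lay a median of 41.8 kb from the nearest start site, with 453 regions (14.99%) at 3 to 10 kb, 1224 (40.5%) at 10 to 50 kb and 102 (3.38%) beyond 500 kb. The constitutive distal regions had almost the same distances, with a median of 41.2 kb. A share of 47.3% lay upstream of that start site and the others downstream. By chromosome, the density was highest on chromosome 20 (1.57 regions per Mb) and lowest on chromosome X (0.509 per Mb) among those with any, and no region lay on chromosome Y. No chromosome's share passed the test against the constitutive distal regions, the lowest adjusted exact p being 0.0768 for chromosome 4 (4.07% against 2.70%) and chromosome 5 (6.06% against 7.97%).

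The 10 widest regions were 958 to 1248 bp wide. The widest lay in intron 2 of ERG, an ETS family factor, at chr21:39810403-39811650. The next lay in intron 5 of AKR1B1, the aldose reductase gene, at chr7:134132879-134134072 (1194 bp), and 10.4 kb upstream of INTS1, a subunit of the Integrator complex, at chr7:1553867-1555035 (1169 bp). The intergenic region at chr21:38936228-38937365 (1138 bp), whose sequence is printed above, ended 75 bp from a HIF1α arsenic interval. Others lay in intron 1 of LURAP1L (1107 bp), intron 3 of IL1RAP, the accessory receptor of interleukin-1 (1020 bp), intron 3 of DPP10 (1011 bp) and intron 4 of TKT, the transketolase of the pentose phosphate pathway (991 bp). The last were intergenic, 26.2 kb downstream of the start of PCED1B (959 bp) and 9.37 kb upstream of KCNE4 (958 bp). An AP-1 site or ARE core lay within 100 bp of the centre in 2 of the 10, against 1711 of all 3022 regions. One lay anywhere in the region in 8 of the 10. A Nrf2 control interval lay within 1 kb of 3 of them, at ERG (901 bp), INTS1 (494 bp) and TKT (600 bp).

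Some regions lay in runs along the chromosomes. Another region of the same kind lay less than 50 kb away for 1059 of them (35.04%), in 444 runs, of which 30 held at least 4. This share was not measured in the other classes and was not tested. Some neighbours lay very close, as at chr10:112173944-112174145 and chr10:112174334-112174779. Whether such neighbours are parts of a single bound stretch was not tested. The longest runs had 6 regions, and 4 runs tied at that number. In ABCC1, the exporter of glutathione conjugates, 6 regions lay along 102.0 kb at chr16:16060926-16162960. They stood in introns 1, 5 and 13, were 181 to 375 bp wide, and 3 held an AP-1 site or ARE core, with 3 constitutive Nrf2 regions among them. Upstream of DUSP5, a phosphatase that acts on ERK, 6 regions spanned 46.5 kb at chr10:112173944-112220428. Their widths were 202, 446, 465, 204, 184 and 359 bp, and 4 of them held such a site. A run of 6 regions spanned 98.8 kb at chr12:26424103-26522894, with SSPN as the gene of the nearest start site. The last of them lay in intron 55 of ITPR2, an inositol trisphosphate receptor, the others were intergenic, and 5 of the 6 held such a site. The fourth run lay in the intergenic sequence upstream of KLF4, 217.5 to 265.0 kb from its start site, at chr9:110469807-110517831. Its regions were 199 to 831 bp wide, 3 of the 6 held a site, and no constitutive Nrf2 region lay among them. Over all 3022 regions, 1711 held such a site near the centre.

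By genes, 2133 of 19794 protein-coding genes (10.8%) had at least 1 of the regions within 50 kb of a start site, and the median gene had 0. Most of them had 1 (1732 genes), 299 had 2, 89 had 3, 11 had 4 and 2 had 5. For comparison, 8.59% of genes had a constitutive Nrf2 distal region and 8.48% a HIF1α arsenic-only distal region within that distance. Proximity does not say which gene a region acts on. A gene with none of the regions may still have Nrf2 intervals that fall outside the rule. The genes with the most regions were COL4A2, a chain of basement membrane collagen IV, with 5 regions of 181 to 453 bp inside the gene, and the locus ENSG00000258989, which overlaps PRKCH, also with 5, of 205 to 369 bp. A further 11 genes tied at 4, of which EPB41L1, ACTN4 and EED are described because their widest region was wider than that of the others. ACTN4 encodes an actin cross-linker, and its regions of 308, 264, 681 and 573 bp all lay in introns of the gene. At EED, a subunit of the Polycomb complex PRC2, the regions lay 18.0 to 37.9 kb upstream and were 408, 219, 466 and 199 bp wide.

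The lists of named genes were chosen with earlier results of these data known. They were read against the 10.8% of all genes, as counts with no test. A gene with more start sites had more places to be counted from. The median number of start sites per gene ran from 2 to 8 over the lists and was 3 over all genes. Its part in the counts was not tested. Genes of the classical Nrf2 programme came first. In 5 lists of antioxidant, glutathione, heme and iron, NADPH and aldo-keto reductase genes, 23 of 56 genes (41.1%) had 1 of the regions within 50 kb, from 31 different regions of 181 to 1194 bp with a median of 278 bp. A constitutive Nrf2 distal region was within that distance of 17 of the 56, where the share over all genes was 8.59%. Of the 31 regions, 12 held an AP-1 site or ARE core near the centre. Over all 3022 regions, 1711 held one and 43.4% held neither. A Nrf2 control interval lay within 1 kb of 11 of the 31 (35.5%), where the share over all 3022 regions was 9.23%. The part of that neighbouring binding in these counts was not tested.

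Antioxidant and thioredoxin genes had a region in 6 of 13 cases. TXNRD1, thioredoxin reductase, had regions of 303 and 230 bp in its introns, 5.22 kb downstream and 3.26 kb upstream of the nearest of its start sites, and Nrf2 control intervals lay 343 and 692 bp from them. NQO1, the quinone reductase, had a region of 278 bp 15.4 kb upstream, in untranslated exon sequence of NOB1. CAT, catalase, had a region of 307 bp 11.4 kb upstream, and the nearest Nrf2 control interval was 183406 bp away. PRDX6, a peroxiredoxin, had a region of 249 bp with an AP-1 site, in an intron of SLC9C2. SRXN1, sulfiredoxin, and SLC7A11, the cystine carrier, had narrower ones of 181 and 199 bp. That at SLC7A11 was 410 bp from a Nrf2 control interval.

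Glutathione genes had a region in 5 of 15 cases. ABCC1 had 3 within 50 kb of a start site, of 329, 240 and 239 bp. GSR, glutathione reductase, had 2 in its introns, of 324 and 224 bp, 971 and 223 bp from a Nrf2 control interval. GSTM3 and GSTM1, glutathione transferases, shared the region of 184 bp between them. GSTM3 had 2 more, 570 and 253 bp from a Nrf2 control interval. GCLC and GCLM, the subunits of the enzyme that limits glutathione synthesis, had none within 50 kb.

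Heme and iron genes had a region in 3 of 10 cases. HMOX1, heme oxygenase 1, had regions of 331 and 260 bp, 9.27 and 13.9 kb upstream of its start site, 673 and 5376 bp from a Nrf2 control interval and with neither site near the centre. FTH1, the ferritin heavy chain, had 3 upstream, of 555, 452 and 232 bp, at 45.4, 46.0 and 6.38 kb. The one of 232 bp was 919 bp from a Nrf2 control interval. SLC40A1, the iron exporter ferroportin, had 2, of 216 and 209 bp, and the second held the extended Nrf2 site.

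NADPH and pentose phosphate genes had a region in 3 of 7 cases. Besides the 991 bp region in TKT, PGD, which encodes 6-phosphogluconate dehydrogenase, had 338 bp in an intron with an ARE core, and no Nrf2 control interval lay nearer than 695974 bp. Aldo-keto and carbonyl reductase genes had a region in 6 of 11 cases, the highest share among the 16 lists. Besides AKR1B1, AKR1B10 had 436 bp with an AP-1 site 11.6 kb upstream. AKR1C2 and AKR1C3 shared a region of 352 bp with an AP-1 site, and EPHX1, microsomal epoxide hydrolase, had 541 bp 42.2 kb upstream, 211 bp from a Nrf2 control interval.

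**Figure D5:**
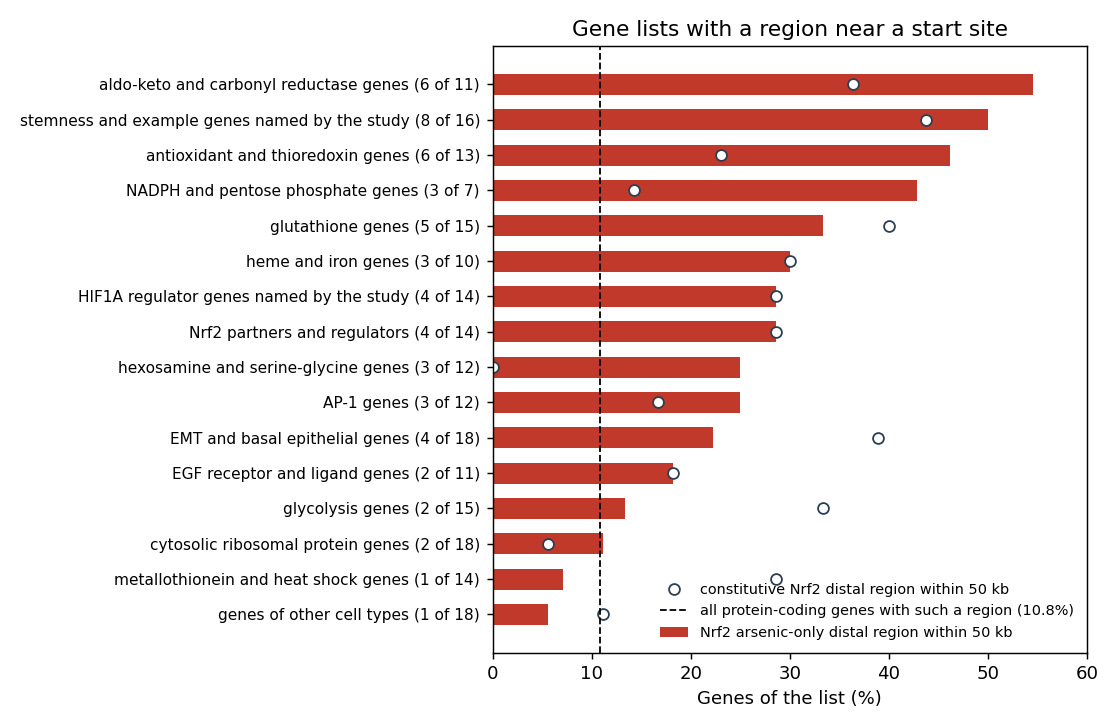
Share of the genes in each of 16 lists (x axis, %) that had a Nrf2 arsenic-only distal region within 50 kb of a start site (bars, with counts beside the names) or a constitutive Nrf2 distal region (open points). The dashed line marks the 10.8% of all protein-coding genes with an arsenic-only region, which 14 of the 16 bars pass. The bars of metallothionein and heat shock genes (1 of 14) and of genes of other cell types (1 of 18) end below it. For constitutive regions the share over all protein-coding genes was 8.59%, which no line marks.

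The partners and regulators of Nrf2 had a region in 4 of 14 cases. They were MAFK and MAFG, which encode small MAF proteins, and the BACH repressor genes BACH1 and BACH2. MAFK had regions of 1169 and 269 bp, the latter in its own intron with both sites. The wider one is the region given above for INTS1, 494 bp from a Nrf2 control interval. BACH1 had 418 bp with the extended site, 31.1 kb upstream in an intron of MAP3K7CL, and 212 bp in its own intron. BACH2 had 344 bp in an intron with an AP-1 site, 992 bp from a Nrf2 control interval. MAFG had 257 bp with the extended site, 37.2 kb downstream. NFE2L2 itself, KEAP1 and MAFF, the gene of another small MAF protein, had none by this rule. For KEAP1 the paper reports Nrf2 enrichment after iAs in the first exon or intron. Among 12 AP-1 genes, FOSL1 had 2 regions upstream, of 302 bp with the extended site and of 285 bp, FOSL2 had 310 bp with the extended site 31.7 kb upstream, and BATF had 507 bp in an intron.

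Metabolic pathways and gene sets followed by the study came next. Of 15 glycolysis genes, SLC2A1, the glucose carrier GLUT1, had 325 bp with an AP-1 site 8.41 kb upstream. PGK1, phosphoglycerate kinase, had 383 bp with the extended site in an intron it shares with ATP7A. It lay 26.7 kb downstream of the nearest annotated start of a PGK1 transcript, and the same region was also counted for ATP7A. A constitutive Nrf2 distal region was near 5 of the 15 (33.3%, against 8.59% of all genes). Hexosamine and serine-glycine genes had a region in 3 of 12 cases, with 236 bp at GNPNAT1, 232 bp at PGM3 and 204 bp at UAP1. GFPT1 and GFPT2, whose products catalyse the rate-limiting step of the hexosamine pathway, and PGM1 had none, and no constitutive Nrf2 distal region was near any of the 12. Many genes of the glycolysis, hexosamine and serine-glycine lists were named by the study from these libraries. It chose the genes of the next lists with these libraries in view. The counts of these lists are therefore not independent evidence. Regulators of HIF1α named by the study had a region in 4 of 14 cases. EPAS1 had 271 and 181 bp, both in its introns, and VHL had 284 bp in an intron of IRAK2. BMAL1 had 244 bp, 368 bp from a Nrf2 control interval, and FOXK1 had 225 bp with the extended site. HIF1A had none. The last such list held stemness genes together with AHR and RHEB, which the study showed as example loci and not for stemness. A region was present in 8 of 16 cases, and a constitutive Nrf2 distal region was near 7 of the 16 (43.8%). AHR and RHEB were among the 8, and TCF19 and POU5F1 counted through the same region of 227 bp. The widest were 540 bp at CD44, 27.3 kb upstream, 418 bp at BACH1, 295 bp at MYC, 5.72 kb downstream, and 273 bp in an intron of EGFR. SOX2 and KLF4 had none within 50 kb by this rule. For these loci the paper reports strong Nrf2 enrichment after iAs. Nrf2 intervals outside the rule were not counted for them.

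EMT and basal epithelial genes had a region in 4 of 18 cases, among them 424 bp at ZEB2, 415 bp at SNAI1 and 376 bp at LAMB3, a laminin chain. The ZEB2 region was 765 bp from a Nrf2 control interval. A constitutive Nrf2 distal region was near 7 of the 18 (38.9%, against 8.59% of all genes). EGF receptor and ligand genes had a region in 2 of 11 cases. EGFR had 3, of 273, 234 and 183 bp, and the one of 234 bp held the extended site, and EREG, epiregulin, had 237 bp with an AP-1 site. Metallothionein and heat shock genes had a region in 1 of 14 cases, 269 bp at the co-chaperone BAG3, 333 bp from a Nrf2 control interval. None of the metallothionein genes in the list had one. Near 4 of the 14 genes (28.6%) lay a constitutive Nrf2 distal region. Cytosolic ribosomal protein genes, taken as a list with no link to Nrf2, had a region in 2 of 18 cases (11.1%), at RPL8 and RPL23. Genes of neurons, B cells, hepatocytes and muscle had it in 1 of 18 (5.56%), at SNAP25.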

How the data were processed

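BEAS-2B cells with or without iAs were profiled by ChIP-seq with antibodies to Nrf2 and HIF1α. Reads were mapped to hg19 by the authors, who thinned the tags of each group to a common number, found intervals by MACS or by SICER, and joined those that overlapped. The submitters' processing notes name BWA and MACS2 2.1.0. The caller behind each list and the read depth are not given in the sources used here. The deposited file holds other values than counts or scores, namely start and end positions, used as they are. An input library was not analysed here.

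The members and the gene lists were chosen with earlier results of these data known. Chromosome names and ends fit the GRCh37 reference. Distances used GENCODE release 44 lifted to GRCh37 and the start sites of 89217 protein-coding transcripts. Motif searches read either strand over windows reaching 100 bp from a region's centre, and over these windows moved by 5 kb. Shares carry 95% Wilson intervals, differences Newcombe intervals, and tests are two-sided Fisher's exact tests with Benjamini-Hochberg adjustment within each family (threshold 0.05). The intervals cover counting error over regions only.

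The rule for named items took the 10 widest regions, up to 4 genes per list with the widest region within 50 kb of a start site, the 5 genes with the most regions (ties taken by the widest region), the 3 longest runs with gaps under 50 kb (4 tied, and all 4 are given), and 8 sequences. Some genes that the rule takes are not reported here. Genes of a list named beyond these 4, or as having none, were chosen after their values were seen, as were the distance bins of the neighbour comparison. The share of soft-masked bases was not computed, because the reference carries no such mask. Python 3.11.15, NumPy 2.4.6, SciPy 1.17.1, pandas 2.3.3, pysam 0.24.0, samtools 1.23.1 and matplotlib 3.10.9 were used, and the functions were tested on simulated regions and sequences. Alternatives of distance, gap, window, width and chromosomes are given in the closing section.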

Additional observations from a re-analysis of the deposited data

How the results depend on the processing

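The number of regions stayed within 1.5 times the 3022 under every alternative tried (2517 to 3248, and 3022 with an own union of the 4 lists) except the wider 50% of Nrf2 arsenic regions, at 388 bp or more, which left 592. The AP-1 and ARE core shares passed against the moved windows in all 14 alternatives, from 29.8% and 22.2% with 50 bp on each side to 50.7% and 40.4% over the whole region. Against the constitutive distal regions the AP-1 difference turned to 1.11 with 50 bp on each side and to 2.20 with a 1 kb gap to the other libraries, neither past the test, and was -20.1 and past the test over whole regions, which are wider in the constitutive class. The ARE core and extended site differences no longer passed with 50 bp on each side (-1.83 and -1.16), with the 1 kb gap (-0.817 and -1.22) and among the wider 50% (-1.10 and -0.803). Centring the constitutive regions on their Nrf2 arsenic interval, an alternative chosen after seeing the data, kept all 3 directions and calls. The intron share and the share near a constitutive region kept direction and call in all alternatives. Genes near a region numbered 3841 within 100 kb, 1365 within the gene body and 10 kb around it, and 530 for the wider 50%, against 2133. The causes of these changes were not tested. Of 59 alternatives, 46 kept the result. With 1 library per condition, unknown depth and no heights, a region absent from a list may have missed that list's threshold.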
